A study of Mus musculus with 8 samples.

Results

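The 34 genes described here are 15 glycolytic enzymes and 19 other genes that hypoxia is known to induce or that control the response to it, of 56923 genes in the count files. They were chosen by name, with earlier results of these data known, and each was found by the Ensembl identifier of its symbol. The 19 others comprised the transporters *Slc2a1* and *Slc16a3*, the regulators of flux *Pdk1*, *Pfkfb3* and *Pfkfb4*, the transcription factor *Hif1a* and its hydroxylases *Egln1* and *Egln3*, and *Vegfa*, *Adm*, *Bnip3*, *Higd1a*, *Car9*, *Ankrd37*, *Ndrg1*, *P4ha1*, *P4ha2*, *Kdm3a* and *Ddit4*. Of the 34, 33 passed the filter of at least 1 CPM (counts scaled to a common library total) in at least 3 of 8 libraries. *Car9* did not pass it, since it reached 1 CPM only in the 2D-cultured libraries, and its values are given without a test.

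Thymic epithelial cells (TECs) of wild-type mice, sorted from embryonic thymi by the epithelial surface protein EpCAM, were compared in 4 groups of 2 libraries. *In vivo* TECs were lysed directly after sorting. 2D-cultured TECs grew on laminin-coated plastic and were collected after 3 days, when the monolayer was confluent, whereas D3 and D7 organoids grew in growth factor-reduced Matrigel for 3 and 7 days in the same medium with FGF7 and were freed from the gel in cold PBS. By the study's methods, sorted cells were collected in medium with the compound thiazovivin. Organoid medium also held it for the first 2 days, and whether 2D cultures received it is not stated. No other treatment is described. The labels call the libraries of each group biological replicates without naming an animal, so p-values measure the spread between these samples. No oxygen level was given for any culture.

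Glycolysis splits glucose into pyruvate in the cytosol, and lactate dehydrogenase then turns pyruvate into lactate when mitochondria do not take it up. Hypoxia-inducible factors (HIFs) are transcription factors whose alpha subunits are hydroxylated by EGLN enzymes, bound by VHL and degraded while oxygen is present. When oxygen is low, they accumulate and bind ACGTG or GCGTG in DNA, and they raise glucose transporters, nearly every glycolytic enzyme and genes of mitophagy, pH control, collagen hydroxylation and vessel growth. TECs build the stroma in which T cells mature, and the study set organoids and 2D culture against TECs taken directly from the thymus.

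The libraries held between 5084715 and 7612532 counts, and CPM values were scaled by composition factors between 0.880 and 1.09. A gene with at most 3 counts in a library was taken to be at the floor there. Markers set limits on what the groups are. *Foxn1* and *Psmb11*, which the study counts among key TEC genes, were at 224 and 274 CPM and 523 and 556 CPM in *in vivo* TECs. In 2D-cultured TECs they stood at 8.55 and 4.83 CPM and 0.545 and 0.557 CPM, the latter at the floor, and in D3 organoids at 8.79 and 9.65 CPM and 0.507 and 0.979 CPM. In D7 organoids they were at 60.7 and 85.2 CPM and 106 and 113 CPM. These are 2 of 10 thymic epithelial markers. The 10 summed to 9530 to 9720 CPM *in vivo*, 8550 to 9340 CPM in 2D culture, 1840 to 2000 CPM at D3 and 2450 to 2490 CPM at D7. Against *in vivo* TECs, 6 of the 10 were higher (*Cdh1*, *Epcam* and 4 keratins) and 4 lower in 2D culture. At D3, 2 were higher and 6 lower, and at D7 1 was higher and 7 lower. *Epcam* was higher in all 3. Thymocyte markers summed to 678 and 297 CPM in *in vivo* TECs and to between 2.55 and 9.89 CPM in the cultured groups, with 6 to 8 of 10 markers at the floor in the latter. Mesenchyme markers summed to 71.9 to 101 CPM *in vivo*, 42.9 to 46.6 CPM in 2D culture, 22.6 to 26.9 CPM at D3 and 75.3 to 83.0 CPM at D7, with 1 to 4 of 10 at the floor. The sums for endothelial, erythroid and myeloid markers were at most 12.7 CPM in any library. Thymocyte RNA moves with every comparison against *in vivo* TECs. Mesenchyme sums were lower than *in vivo* in 2D culture and at D3. At D7, *Dcn* and *Lum* were higher than *in vivo*, and *Col1a1* and *Thy1* lower. *Thy1* made up 49.8 and 21.3 CPM of the *in vivo* mesenchyme sums and was at most 6.68 CPM in any cultured library. The part of thymocyte and mesenchyme RNA in any comparison was not tested. Bulk counts cannot tell fewer cells of a type from less RNA per cell.

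The sequences before the start sites of 6 members are shown first because they range from 0 to 8 HIF core motifs, among members described in detail here. Each window spans 250 bases before and 50 bases after the annotated start of the gene's canonical transcript in GRCm39, printed 5′ to 3′ on the gene's strand, with ACGTG and GCGTG on either strand in capitals. The palindrome CACGTG counts at 2 starts, once for each strand. *Ndrg1* has 5 motif starts, *P4ha2* 4, *Ldha* 8, *Car9* 1, *Slc16a3* 1 and *Aldoc* 0. The *Ndrg1* window is chr15:66841753-66842052 on the minus strand, that of *P4ha2* is chr11:53991500-53991799, that of *Ldha* is chr7:46495013-46495312, that of *Car9* is chr4:43506716-43507015, that of *Slc16a3* is chr11:120839291-120839590 and that of *Aldoc* is chr11:78213544-78213843, all 5 on the plus strand.
Ndrg1: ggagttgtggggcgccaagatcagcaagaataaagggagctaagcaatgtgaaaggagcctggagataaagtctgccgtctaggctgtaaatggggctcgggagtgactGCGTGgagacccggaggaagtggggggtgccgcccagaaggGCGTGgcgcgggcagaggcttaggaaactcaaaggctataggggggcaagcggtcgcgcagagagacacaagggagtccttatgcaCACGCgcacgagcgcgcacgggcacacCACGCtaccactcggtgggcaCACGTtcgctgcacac
P4ha2: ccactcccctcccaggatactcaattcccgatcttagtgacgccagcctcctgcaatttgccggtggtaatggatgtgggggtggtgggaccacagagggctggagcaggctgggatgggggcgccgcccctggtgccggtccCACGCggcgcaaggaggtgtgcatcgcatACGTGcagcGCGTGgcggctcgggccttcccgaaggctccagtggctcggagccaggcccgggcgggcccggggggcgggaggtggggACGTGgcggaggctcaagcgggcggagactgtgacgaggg
Ldha: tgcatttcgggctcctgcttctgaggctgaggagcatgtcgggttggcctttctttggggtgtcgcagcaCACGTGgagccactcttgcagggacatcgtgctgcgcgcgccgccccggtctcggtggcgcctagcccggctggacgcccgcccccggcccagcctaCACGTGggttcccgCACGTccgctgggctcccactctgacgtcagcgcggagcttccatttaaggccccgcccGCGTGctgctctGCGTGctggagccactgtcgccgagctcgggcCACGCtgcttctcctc
Car9: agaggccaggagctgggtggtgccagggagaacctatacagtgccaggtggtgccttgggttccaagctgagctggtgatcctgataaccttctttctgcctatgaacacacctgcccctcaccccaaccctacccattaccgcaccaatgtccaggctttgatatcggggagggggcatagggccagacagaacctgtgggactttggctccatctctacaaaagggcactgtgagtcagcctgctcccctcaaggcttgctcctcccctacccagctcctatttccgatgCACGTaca
Slc16a3: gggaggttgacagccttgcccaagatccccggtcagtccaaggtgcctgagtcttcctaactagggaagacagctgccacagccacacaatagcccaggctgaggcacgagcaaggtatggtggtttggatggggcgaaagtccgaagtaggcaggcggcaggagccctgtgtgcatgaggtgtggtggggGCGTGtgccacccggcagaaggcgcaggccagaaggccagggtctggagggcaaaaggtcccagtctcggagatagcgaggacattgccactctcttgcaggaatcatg
Aldoc: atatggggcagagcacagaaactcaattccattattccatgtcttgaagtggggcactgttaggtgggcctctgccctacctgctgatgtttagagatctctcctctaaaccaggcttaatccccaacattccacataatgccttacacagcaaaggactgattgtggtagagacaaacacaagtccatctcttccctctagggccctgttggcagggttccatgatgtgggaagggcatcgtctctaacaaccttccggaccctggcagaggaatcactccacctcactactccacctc
At least 1 match was present in 47.9% of the 21631 windows of protein-coding genes, in 10 of the 15 glycolytic enzymes (66.7%) and in 15 of the 19 other members (78.9%). ACGTG alone was present in 20.7% of all windows, in 8 of the 15 enzymes and in 11 of the 19 others. *Tpi1*, *Pkm*, *Gpi1*, *Pfkl*, *Vegfa*, *Pfkfb3*, *Higd1a* and *Kdm3a* had no match in this window, as had *Aldoc*. A match describes the letters in the window and is not evidence of binding, and no match says nothing of sites elsewhere.

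Most glycolytic enzymes had their highest level in 2D-cultured TECs, while in both organoid groups the summed level of the enzymes lay near that *in vivo*. Counts of the 15 enzymes summed to 983.3 and 910.6 CPM in *in vivo* TECs, to 2195 and 2720 CPM in 2D-cultured TECs, to 938.1 and 881.0 CPM in D3 organoids, and to 903.6 and 959.1 CPM in D7 organoids. By this sum only the 2D-cultured libraries stood apart. *Aldoc* made up 5.57 and 7.9 CPM of it *in vivo*, 41.4 and 52.7 CPM at D3, and 149 and 129.9 CPM at D7. Near-equal sums therefore do not mean that each enzyme kept its level. At D7, 4 enzymes were higher than *in vivo* and 3 lower. The 19 other members together came to 1142 and 1159 CPM *in vivo*, 1734 and 1946 CPM in 2D culture, 888 and 840.4 CPM at D3, and 723 and 661 CPM at D7. In this second sum the organoids lay below *in vivo* TECs, and the 4 groups did not overlap. These sums are levels without a test.

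Gene by gene, 12 of the 15 enzymes were higher and 0 lower in 2D-cultured TECs than in *in vivo* TECs (edgeR's quasi-likelihood test, Benjamini-Hochberg adjusted p of at most 0.05 over 14504 genes). With limma-voom and with DESeq2 14 were higher and 0 lower, as at an unadjusted p of at most 0.05. Of all genes tested, 19.9% were higher and 21.7% lower, 41.6% in all. The median log2 fold change of the enzymes was 1.33, against -0.06 over all genes. The other members divided, with 7 of 18 higher, 4 lower and a median of 0.43. *Slc2a1*, *Slc16a3*, *Bnip3*, *Higd1a*, *Ndrg1*, *P4ha2* and *Ddit4* rose, and *Pfkfb3*, *Egln3*, *Hif1a* and *Kdm3a* fell. With library size alone as scaling, the median of all genes moved to -0.24 in this comparison and calls over all genes shifted from 2883 higher and 3150 lower to 2221 and 3802. No member that passed the threshold in this comparison changed direction under that scaling, and *Pfkm* and *P4ha1*, which did not pass, went from 0.17 each to -0.02 and -0.01. Without 2D replicate 2, 8 enzymes passed.

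In D3 organoids against *in vivo* TECs, 3 enzymes were higher (*Hk1*, *Pfkm* and *Aldoc*) and 4 lower (*Pfkl*, *Aldoa*, *Tpi1* and *Pgk1*), where 14.1% of all genes were higher and 14.0% lower, 28.2% in all. The median over the enzymes was 0.15. Of the 18 other members 10 fell and *Slc2a1* alone rose, with a median of -0.80 against -0.01 over all genes. In D7 organoids, 4 enzymes were higher than *in vivo* (*Hk1*, *Gpi1*, *Pfkm* and *Aldoc*) and 3 lower (*Tpi1*, *Gapdh* and *Ldha*), beside 18.0% and 16.8% of all genes, 34.8% in all. The enzymes' median was -0.09. Among the others 12 of 18 fell and *Pfkfb4* rose, and the median was -1.32 against 0.01 over all genes. The 3 comparisons against *in vivo* TECs share the same 2 control libraries and are not independent of each other. Leaving out either D3 library cut the enzymes called at D3 from 7 to 4.

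Against 2D-cultured TECs, both organoid groups were lower in most members. At D3, 9 enzymes fell and *Aldoc* rose, beside 19.1% of all genes lower and 19.3% higher (38.3% in all), and 11 of the 18 others fell while *Hif1a* rose. The medians were -1.26 and -1.48, against 0.03 over all genes. At D7, 10 enzymes fell and *Hk1*, *Pfkm* and *Aldoc* rose, beside 21.1% lower and 24.4% higher of all genes, 45.5% in all. Of the others, 13 fell and *Hif1a* rose. The D7 medians were -1.31 and -1.85, against 0.10 over all genes. With library size alone, these 2 all-gene medians moved to 0.29 at D3 and 0.31 at D7, and the calls from 2798 higher and 2764 lower to 3872 and 1886 at D3 and from 3546 and 3059 to 4340 and 2315 at D7.

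Between the organoid days, 4 enzymes were higher at D7 (*Hk1*, *Gpi1*, *Pfkl* and *Aldoc*) and 3 lower (*Tpi1*, *Gapdh* and *Ldha*), beside 10.9% of all genes higher and 9.91% lower, 20.8% in all. *Slc2a1* and *Pdk1* fell and 0 of the 18 others rose, with 1 higher and 4 lower at an unadjusted p of at most 0.05 and 0 higher with limma-voom or DESeq2. The number of enzymes called went from 7 to 4 without D3 replicate 1 and to 3 without D7 replicate 2. Among the other members, the *Pdk1* call was lost without any of the 4 libraries compared (log2 fold change between -0.63 and -0.56).

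**Figure D1:**
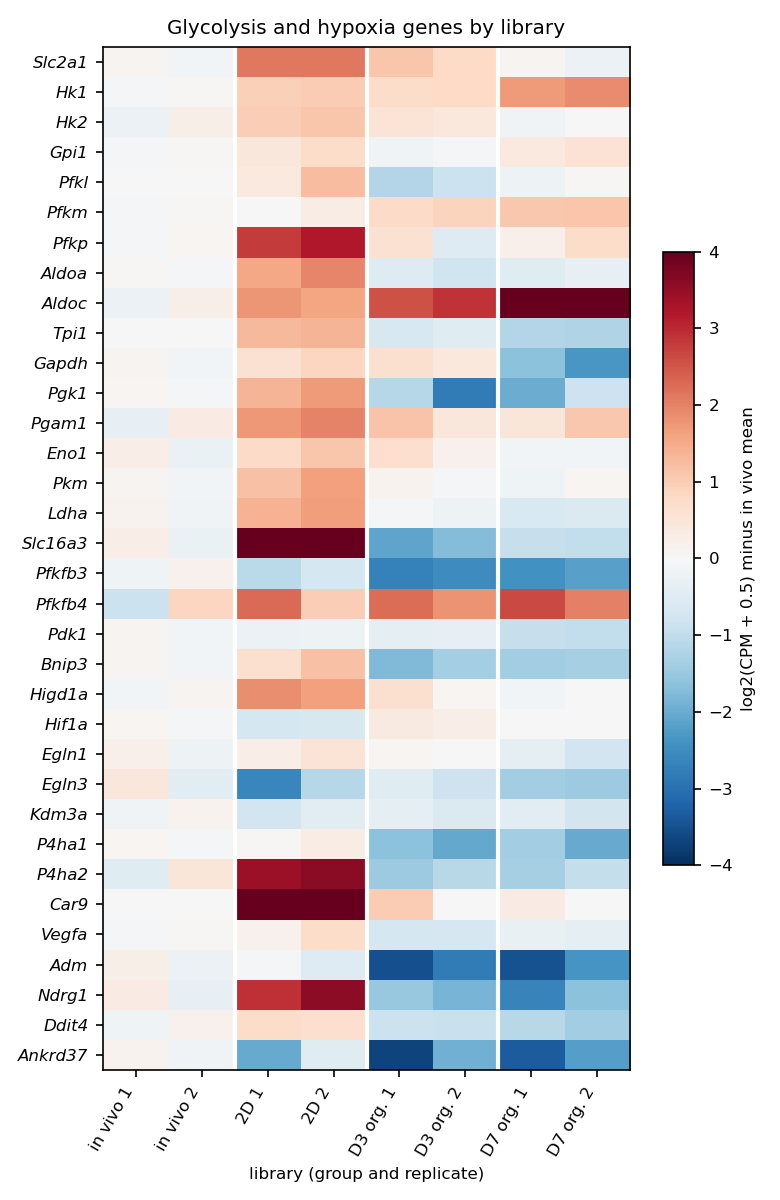
Heat map of the 34 members (rows, from glucose uptake to stress genes) in the 8 libraries (columns), coloured by log2(CPM + 0.5) minus the mean of the 2 *in vivo* libraries, with colours saturating at 4 in either direction. The enzymes are mostly red in the 2D columns alone, *Aldoc* and *Hk1* are reddest at D7, and *Pfkfb3*, *Bnip3*, *P4ha1*, *Adm*, *Ndrg1* and *Ankrd37* are blue in all 4 organoid columns.

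Glucose enters the cell through carriers and is held there by hexokinase. *Slc2a1*, which encodes the broadly expressed carrier GLUT1, was at 38.6 and 32.6 CPM in *in vivo* TECs, 155 and 154 CPM in 2D-cultured TECs, 77.2 and 62.2 CPM in D3 organoids, and 37.96 and 30.1 CPM in D7 organoids. The 2D-cultured libraries were highest, the D3 organoids lay between, and the D7 organoids overlapped *in vivo* TECs. *Slc2a1* was higher than *in vivo* in 2D-cultured TECs (log2 fold change 2.12, standard error 0.19, adjusted p = 9.52e-08) and in D3 organoids (log2 fold change 0.97, standard error 0.19, adjusted p = 0.000855), and it fell from D3 to D7 (log2 fold change -1.03, standard error 0.19, adjusted p = 0.00118). *Hk1*, the hexokinase found in most tissues, was at 14.3 and 15.1 CPM in *in vivo* TECs, 29.1 and 30.3 CPM in 2D-cultured TECs, 24.7 and 26.1 CPM in D3 organoids, and 49.4 and 55.6 CPM in D7 organoids. Its 4 groups did not overlap, and the highest values were those of D7 organoids. *Hk1* rose against *in vivo* TECs in 2D culture (log2 fold change 1.01, standard error 0.22, adjusted p = 0.00117), at D3 (log2 fold change 0.79, standard error 0.22, adjusted p = 0.011) and at D7 (log2 fold change 1.83, standard error 0.21, adjusted p = 4.2e-06), and at D7 it was also above 2D culture (log2 fold change 0.82, standard error 0.20, adjusted p = 0.00357).

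*Hk2*, the hexokinase that HIFs and insulin induce, stood at 30.98 and 42.6 CPM in *in vivo* TECs, 72.9 and 79.1 CPM in 2D-cultured TECs, 53.6 and 49.2 CPM in D3 organoids, and 33.1 and 36.4 CPM in D7 organoids. Its peak was in 2D culture, and the D7 values lay within the range of the *in vivo* libraries. *Hk2* was higher in 2D-cultured than in *in vivo* TECs (log2 fold change 1.04, standard error 0.20, adjusted p = 0.000415), while D7 organoids were lower than 2D culture (log2 fold change -1.13, standard error 0.20, adjusted p = 0.000194). D3 organoids were lower than 2D culture as well (log2 fold change -0.56, standard error 0.19, adjusted p = 0.0297), a call lost without either library of either group (adjusted p between 0.0664 and 0.15). The log2 ratio of *Hk2* to *Hk1* within a library was between 0.91 and 1.5 in the 6 libraries of the other groups and -0.58 and -0.61 in D7 organoids. A ratio between genes also depends on how each 3′ end is captured, so only its shift between groups is described. *Gpi1*, glucose-6-phosphate isomerase, ranged from 98.9 to 182 CPM over the 8 libraries. It was higher than *in vivo* in 2D-cultured TECs (log2 fold change 0.60, standard error 0.16, adjusted p = 0.00636) and in D7 organoids (log2 fold change 0.49, standard error 0.16, adjusted p = 0.0267). The first call was lost without 2D replicate 2 (adjusted p = 0.0835), and the second without either *in vivo* library or D7 replicate 2 (adjusted p between 0.0604 and 0.185).

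Phosphofructokinase commits sugar to glycolysis, and its subunits come from 3 genes named after liver (*Pfkl*), muscle (*Pfkm*) and platelets (*Pfkp*). *Pfkp* was at 4.35 and 4.79 CPM in *in vivo* TECs, 34.5 and 45.9 CPM in 2D-cultured TECs, 7.27 and 3.08 CPM in D3 organoids, and 5.33 and 7.91 CPM in D7 organoids. Both libraries of 2D culture were far above the other 6, among which D3 organoids overlapped both *in vivo* TECs and D7 organoids. *Pfkp* was the enzyme gene that differed most between 2D-cultured and *in vivo* TECs (log2 fold change 3.13, standard error 0.38, adjusted p = 3.38e-06), and it was lower in D3 (log2 fold change -2.98, standard error 0.37, adjusted p = 6.35e-06) and D7 organoids (log2 fold change -2.62, standard error 0.36, adjusted p = 1.73e-05) than in 2D culture. *Pfkl* was at 32.5 and 33.00 CPM in *in vivo* TECs, 42.9 and 78.5 CPM in 2D-cultured TECs, 14.4 and 18.03 CPM in D3 organoids, and 28.4 and 33.6 CPM in D7 organoids. The 2D-cultured libraries were highest and wide apart, and those of D3 organoids were lowest. *Pfkl* was higher in 2D-cultured than in *in vivo* TECs (log2 fold change 0.89, standard error 0.25, adjusted p = 0.00962) and lower in D3 organoids than *in vivo* (log2 fold change -1.01, standard error 0.27, adjusted p = 0.00888). The former was lost without 2D replicate 2 (log2 fold change 0.40, adjusted p = 0.275) and the latter without D3 replicate 1 (adjusted p = 0.0925).

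*Pfkm* stood at 9.22 and 9.73 CPM in *in vivo* TECs, 9.64 and 11.7 CPM in 2D-cultured TECs, 16.4 and 18.2 CPM in D3 organoids, and 20.6 and 20.96 CPM in D7 organoids. Both organoid groups lay above *in vivo* and 2D-cultured TECs, whose libraries overlapped. It rose against *in vivo* TECs at D3 (log2 fold change 0.87, standard error 0.28, adjusted p = 0.0269) and D7 (log2 fold change 1.13, standard error 0.28, adjusted p = 0.00435), and the D3 call was lost without any of the 4 libraries compared (adjusted p between 0.0572 and 0.0904). The bifunctional enzymes PFKFB3 and PFKFB4 make and remove fructose-2,6-bisphosphate, the activator of phosphofructokinase. *Pfkfb3* was at 19.1 and 23.98 CPM in *in vivo* TECs, 9.82 and 12.99 CPM in 2D-cultured TECs, 2.87 and 3.35 CPM in D3 organoids, and 3.6 and 4.35 CPM in D7 organoids. *In vivo* TECs were highest, 2D-cultured TECs intermediate and the 4 organoid libraries lowest. *Pfkfb3* fell against *in vivo* TECs at D3 (log2 fold change -2.78, standard error 0.37, adjusted p = 1.69e-05) and at D7 (log2 fold change -2.45, standard error 0.36, adjusted p = 4.9e-05). It also fell in 2D culture (log2 fold change -0.92, standard error 0.33, adjusted p = 0.0328), where leaving out *in vivo* replicate 2 or either 2D library ended the call (adjusted p between 0.0564 and 0.195). *Pfkfb4* was close to the floor, at 0 and 1.13 CPM in *in vivo* TECs, 3.82 and 1.3 CPM in 2D-cultured TECs, 3.72 and 2.66 CPM in D3 organoids, and 5.09 and 3.16 CPM in D7 organoids. The D7 organoids were above *in vivo* TECs (log2 fold change 2.76, standard error 0.99, adjusted p = 0.039), a call that was lost without *in vivo* replicate 1 or either D7 library (adjusted p between 0.0807 and 0.201). The size of this difference rests on *in vivo* replicate 2, since *Pfkfb4* had 0 counts in the other *in vivo* library.

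Aldolase splits the phosphorylated hexose, and triosephosphate isomerase joins the products into a common stream. *Aldoa*, the aldolase of muscle and most other cells, was at 138 and 131 CPM in *in vivo* TECs, 393 and 526 CPM in 2D-cultured TECs, 94.6 and 77.3 CPM in D3 organoids, and 95.9 and 108 CPM in D7 organoids. The 2D-cultured libraries were highest, and all 4 organoid libraries lay below *in vivo* TECs. *Aldoa* rose in 2D culture (log2 fold change 1.77, standard error 0.17, adjusted p = 2.73e-07) and was lower than *in vivo* at D3 (log2 fold change -0.64, standard error 0.17, adjusted p = 0.00979), the latter a call that was lost without D3 replicate 2 (adjusted p = 0.137). *Aldoc*, best known as the aldolase of brain, took a different course, at 5.57 and 7.9 CPM in *in vivo* TECs, 23.6 and 20.6 CPM in 2D-cultured TECs, 41.4 and 52.7 CPM in D3 organoids, and 149 and 129.9 CPM in D7 organoids. No 2 groups overlapped, and the level stepped up from *in vivo* TECs through 2D culture and D3 organoids to D7 organoids. *Aldoc* was the enzyme gene that differed most from *in vivo* TECs in either organoid group, at D3 (log2 fold change 2.79, standard error 0.24, adjusted p = 9.38e-08) and at D7 (log2 fold change 4.36, standard error 0.24, adjusted p = 5.58e-10). It was higher at D7 than at D3 (log2 fold change 1.57, standard error 0.20, adjusted p = 5.08e-05) and than in 2D culture (log2 fold change 2.66, standard error 0.21, adjusted p = 2.61e-08), and higher in 2D-cultured than in *in vivo* TECs (log2 fold change 1.70, standard error 0.25, adjusted p = 2.62e-05). The gene lies at chr11:78213619-78218889, and its window printed above holds no HIF core motif. The log2 ratio of *Aldoc* to *Aldoa* was between -4.68 and -4.05 in *in vivo* and 2D-cultured libraries, -1.19 and -0.55 at D3, and 0.64 and 0.27 at D7.

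*Tpi1*, triosephosphate isomerase, was at 119.8 and 120.0 CPM in *in vivo* TECs, 297 and 305 CPM in 2D-cultured TECs, 76.7 and 85.6 CPM in D3 organoids, and 52.9 and 52.2 CPM in D7 organoids. Its groups formed 4 levels without overlap, highest in 2D culture and lowest at D7. *Tpi1* rose in 2D culture (log2 fold change 1.33, standard error 0.15, adjusted p = 1.63e-06) and fell against *in vivo* TECs at D7 (log2 fold change -1.19, standard error 0.15, adjusted p = 1.39e-05). It was also lower at D3 (log2 fold change -0.56, standard error 0.15, adjusted p = 0.00984), where the call was lost without D3 replicate 1 (adjusted p = 0.0655), and lower at D7 than at D3 (log2 fold change -0.63, standard error 0.16, adjusted p = 0.00838), where it was lost without D7 replicate 2 (adjusted p = 0.0799).

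The enzymes from glyceraldehyde-3-phosphate to pyruvate have many processed copies in the mouse genome, and how reads that match several places were counted is not stated. Of the 50-base words of the transcript, 93.6% recurred elsewhere in GRCm39 for *Pgam1*, 92.9% for *Pgk1*, 85.6% for *Gapdh*, 63.6% for *Eno1* and 40.2% for *Pkm*. Of the enzymes described above, *Gpi1* had 24.5% and *Tpi1* 23.6%. In the last 500 bases the share was 100% for *Gapdh*, 99.6% for *Pgam1* and 32.6% for *Tpi1*. *Aldoa* shared 100% of its words there with transcripts of *Gm5276*, *Gm57854* and *Gm8767*, which held 0 counts in every library. The counts of these genes are therefore uncertain, as are those of any of the 23 members that overlap a gene on the other strand, since the strand used in counting is not stated either. *Gapdh*, glyceraldehyde-3-phosphate dehydrogenase, was at 52.4 and 44.4 CPM in *in vivo* TECs, 74.6 and 87.99 CPM in 2D-cultured TECs, 76.05 and 64.3 CPM in D3 organoids, and 15.01 and 9.29 CPM in D7 organoids. 2D-cultured TECs and D3 organoids overlapped above *in vivo* TECs, and D7 organoids were lowest. *Gapdh* was lower at D7 than *in vivo* (log2 fold change -1.96, standard error 0.23, adjusted p = 5.5e-06) and than at D3 (log2 fold change -2.50, standard error 0.23, adjusted p = 2.12e-06). It was higher in 2D-cultured than in *in vivo* TECs (log2 fold change 0.75, standard error 0.21, adjusted p = 0.00896), which was lost without *in vivo* replicate 2 (adjusted p = 0.0606) or without 2D replicate 2 (adjusted p = 0.082). With the counts of the genes that share its 3′ sequence added, the log2 fold changes were 0.81 in 2D culture and -1.57 at D7, both still past the threshold.

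*Pgk1*, phosphoglycerate kinase, gave few reads, at 4.18 and 3.67 CPM in *in vivo* TECs, 10.9 and 13.7 CPM in 2D-cultured TECs, 1.52 and 0.14 CPM in D3 organoids, and 0.62 and 1.98 CPM in D7 organoids. The organoid libraries lay below *in vivo* TECs and the 2D-cultured libraries above. It was lower than 2D culture at D3 (log2 fold change -3.93, standard error 0.77, adjusted p = 0.000611) and at D7 (log2 fold change -3.32, standard error 0.73, adjusted p = 0.00141), and against *in vivo* TECs it fell at D3 (log2 fold change -2.28, standard error 0.79, adjusted p = 0.0391), a call lost without either *in vivo* library or D3 replicate 2 (adjusted p between 0.0606 and 0.254). D3 replicate 2 held 1 count, so the size of both D3 differences depends on which D3 library is kept. Without D3 replicate 1 the log2 fold changes were -6.27 against 2D culture and -4.62 against *in vivo* TECs. Without D3 replicate 2 the log2 fold change against *in vivo* TECs was -1.29. *Pgam1*, phosphoglycerate mutase, ranged from 0.348 to 3.71 CPM and passed the threshold in 0 of the 6 comparisons by edgeR's test, while 2D-cultured against *in vivo* TECs passed with limma-voom (adjusted p = 0.0444) and DESeq2 (adjusted p = 0.0461). *Eno1*, enolase, was at 10.8 and 7.19 CPM in *in vivo* TECs, 15.5 and 19.7 CPM in 2D-cultured TECs, 14.4 and 10.1 CPM in D3 organoids, and 8.06 and 8.11 CPM in D7 organoids. It rose in 2D-cultured against *in vivo* TECs (log2 fold change 0.97, standard error 0.33, adjusted p = 0.0266), a call lost without *in vivo* replicate 2 or 2D replicate 2 (adjusted p of 0.148 and 0.159). Its near-identical copy *Eno1b* held more reads, from 14.6 to 28.4 CPM in the other groups and 169.1 and 228.5 CPM in 2D-cultured TECs. Summed, the pair rose in 2D culture (log2 fold change 2.68, adjusted p = 2.53e-08), an addition made after the values were seen.

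*Pkm*, pyruvate kinase, was at 146 and 126 CPM in *in vivo* TECs, 305 and 426 CPM in 2D-cultured TECs, 150.4 and 132 CPM in D3 organoids, and 120.3 and 144 CPM in D7 organoids. Only the 2D-cultured libraries stood apart, and *in vivo* TECs overlapped both organoid groups. *Pkm* rose in 2D culture (log2 fold change 1.43, standard error 0.18, adjusted p = 5.71e-06). For D7 organoids against *in vivo* TECs, its difference did not pass the threshold (log2 fold change -0.04, standard error 0.18, adjusted p = 0.886).

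Lactate is made by lactate dehydrogenase and leaves the cell with a proton, so export and pH control are described with it. *Ldha*, the lactate dehydrogenase subunit that favours lactate, was at 310.5 and 252 CPM in *in vivo* TECs, 737 and 889 CPM in 2D-cultured TECs, 266 and 240.3 CPM in D3 organoids, and 181 and 188 CPM in D7 organoids. The 2D-cultured libraries were highest, D3 organoids overlapped *in vivo* TECs, and D7 organoids were lowest. *Ldha* rose in 2D culture (log2 fold change 1.53, standard error 0.16, adjusted p = 5.01e-07) and was lower than 2D culture at D3 (log2 fold change -1.68, standard error 0.16, adjusted p = 2.29e-07) and D7 (log2 fold change -2.14, standard error 0.16, adjusted p = 1.22e-08). It was also lower than *in vivo* at D7 (log2 fold change -0.61, standard error 0.16, adjusted p = 0.00628), a call that was lost without *in vivo* replicate 1 (adjusted p = 0.0839). The log2 ratio of *Ldha* to *Ldhb*, the subunit that favours pyruvate, was 4.21 and 4.60 in 2D culture and between 1.53 and 2.61 in the other libraries. Of the transcript's 50-base words, 33.8% recur elsewhere in the genome.

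*Slc16a3*, which encodes the lactate exporter MCT4, was at 2.09 and 1.27 CPM in *in vivo* TECs, 42.7 and 67.4 CPM in 2D-cultured TECs, 0 and 0.14 CPM in D3 organoids, and 0.62 and 0.593 CPM in D7 organoids. It was clearly present in 2D culture and near the floor in the 4 organoid libraries. Among the 33 members tested, *Slc16a3* rose most in 2D-cultured against *in vivo* TECs (log2 fold change 5.04, standard error 0.40, adjusted p = 1.83e-08), and D7 organoids were far below 2D culture (log2 fold change -6.45, standard error 0.46, adjusted p = 5.64e-09). D3 organoids held 1 count in all, so their pooled ratio is given with its 95% counting interval. The level in 2D culture was 718 times that of D3 organoids (128 to 28400), and *in vivo* TECs held 21.4 times as much as D3 organoids (3.44 to 884). The fall at D3 against *in vivo* TECs passed by edgeR's test (log2 fold change -4.11, standard error 0.92, adjusted p = 0.00255). It did not pass with limma-voom (log2 fold change -3.65, adjusted p = 0.0706). *Car9*, a membrane carbonic anhydrase that helps to rid cells of acid and is widely used as a marker of HIF activity, had 0 counts in both *in vivo* libraries. It was at 21.1 and 24.1 CPM in 2D-cultured TECs, at 0.507 and 0 CPM in D3 organoids and at 0.124 and 0 CPM in D7 organoids. Against a floor of 3 counts per library *in vivo*, the 2D-cultured level was at least 47.8-fold higher. It was 98.5 times that of D3 organoids (33.3 to 481) and 296 times that of D7 organoids (52.7 to 11800), and these intervals cover counting error only. *Pdk1*, the kinase that keeps pyruvate out of the mitochondrion, ranged from 42.1 to 91.0 CPM. It was lower at D7 than *in vivo* (log2 fold change -0.97, standard error 0.17, adjusted p = 0.000345) and than in 2D culture (log2 fold change -0.73, standard error 0.17, adjusted p = 0.00255), and it did not pass the threshold in 2D-cultured against *in vivo* TECs (log2 fold change -0.23, standard error 0.17, adjusted p = 0.292).

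**Figure D2:**
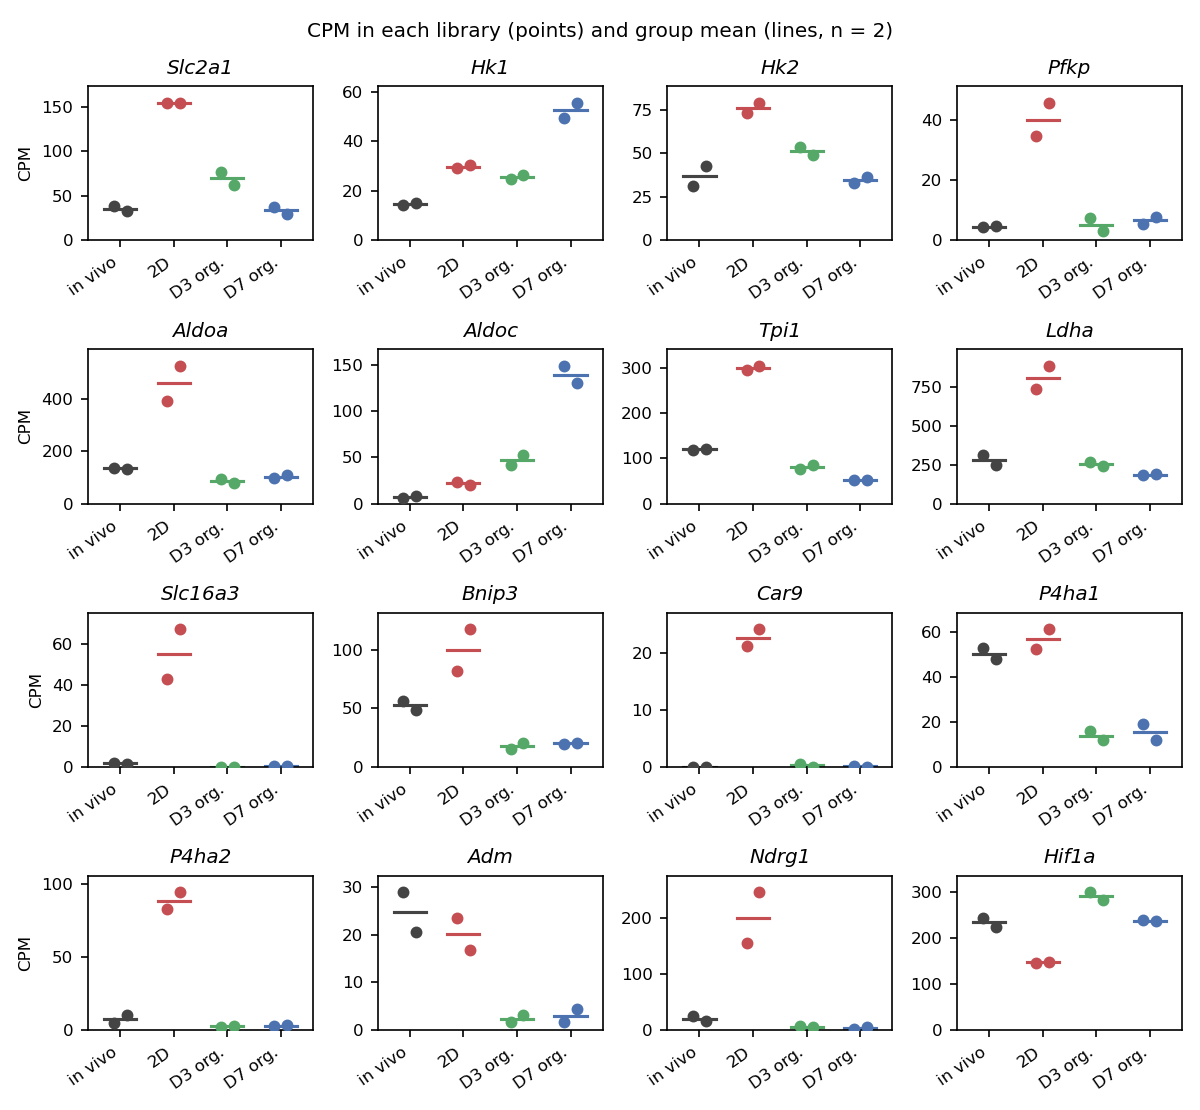
CPM of 16 members in each library (points) with the group mean (line, 2 libraries per group), on linear axes that start at 0 and differ between panels. *Slc16a3*, *Car9*, *P4ha2* and *Ndrg1* are high in 2D culture alone, *Aldoc* and *Hk1* are highest at D7, and *P4ha1*, *Bnip3* and *Adm* are lower in all 4 organoid libraries than in the 4 others.

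**Figure D3:**
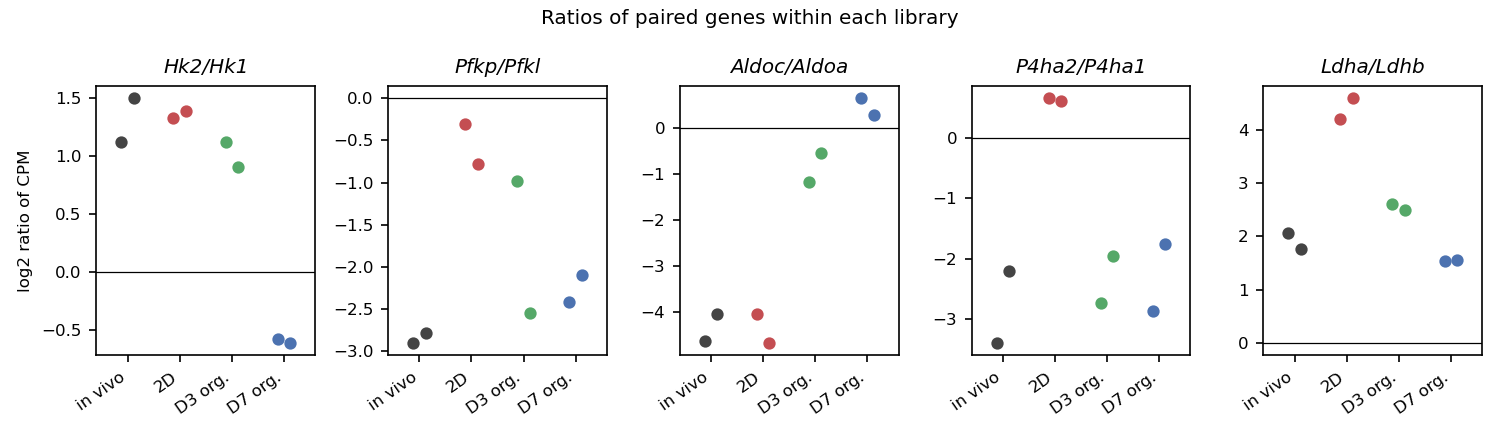
Log2 ratio of the CPM of 5 pairs of related genes within each library (points, 2 per group), with a line at 0 for equal CPM. *Hk2* to *Hk1* is below 0 at D7 only, *Aldoc* to *Aldoa* is above 0 at D7 only, and *P4ha2* to *P4ha1* is above 0 in 2D culture only.

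The members that control HIF or modify chromatin under its control were *Hif1a*, *Egln1*, *Egln3* and *Kdm3a*. *Hif1a*, which encodes the oxygen-regulated subunit, was lowest in 2D culture at 145 and 149 CPM and ranged from 224 to 300.0 CPM in the other 6 libraries. Its transcript was lower in 2D-cultured than in *in vivo* TECs (log2 fold change -0.67, standard error 0.14, adjusted p = 0.00119) and higher than 2D culture in D3 (log2 fold change 0.99, standard error 0.14, adjusted p = 3.61e-05) and D7 organoids (log2 fold change 0.69, standard error 0.14, adjusted p = 0.000868). These counts do not measure HIF protein, which is controlled mainly by degradation. *Egln1*, the main HIF prolyl hydroxylase, ranged from 35.6 to 88.4 CPM and was lower in D7 organoids than in 2D culture (log2 fold change -0.96, standard error 0.20, adjusted p = 0.00104). *Egln3*, a hydroxylase that HIF induces, was at 21.8 and 11.6 CPM in *in vivo* TECs, 2.18 and 6.87 CPM in 2D-cultured TECs, 11.3 and 8.81 CPM in D3 organoids, and 5.71 and 5.54 CPM in D7 organoids. *In vivo* TECs were highest and the 2 values in 2D culture were 2.18 and 6.87 CPM, the lower of them the lowest of the 8. *Egln3* fell in 2D culture (log2 fold change -1.87, standard error 0.47, adjusted p = 0.00404) and at D7 (log2 fold change -1.56, standard error 0.45, adjusted p = 0.0134). The 2D call was lost without *in vivo* replicate 1 or 2D replicate 1 (adjusted p of 0.0544 and 0.0637), and the D7 call without *in vivo* replicate 1 or either D7 library (adjusted p between 0.0662 and 0.151). Without 2D replicate 2 the log2 fold change in 2D culture was -2.91.

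*Kdm3a*, a histone demethylase induced by HIF, ranged from 32.2 to 59.7 CPM. It was below *in vivo* TECs in 2D culture (log2 fold change -0.59, standard error 0.21, adjusted p = 0.03) and at D7 (log2 fold change -0.61, standard error 0.21, adjusted p = 0.031). The 2D call was lost without *in vivo* replicate 2 or 2D replicate 1 (adjusted p of 0.163 and 0.22), and the D7 call without *in vivo* replicate 2 or D7 replicate 2 (adjusted p of 0.147 and 0.227). *Ankrd37*, a small ankyrin-repeat gene among the HIF targets, was at 9.22 and 7.33 CPM in *in vivo* TECs, 1.64 and 5.75 CPM in 2D-cultured TECs, 0.169 and 1.82 CPM in D3 organoids, and 0.372 and 1.38 CPM in D7 organoids. It was highest *in vivo*, and D3 and D7 organoids overlapped near the floor. *Ankrd37* fell at D3 (log2 fold change -2.98, standard error 0.87, adjusted p = 0.0161) and D7 (log2 fold change -3.31, standard error 0.91, adjusted p = 0.0091). The D3 call was lost without *in vivo* replicate 1 or D3 replicate 1 (adjusted p of 0.0549 and 0.117), and the D7 call without D7 replicate 1 (adjusted p = 0.105). Without D3 replicate 2 the D3 level would rest on 1 count.

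HIF also acts on mitochondria through *Bnip3*, a receptor for their removal by autophagy, and *Higd1a*, a small protein of the inner membrane. *Bnip3* was at 56.7 and 48.4 CPM in *in vivo* TECs, 82.4 and 118 CPM in 2D-cultured TECs, 15.04 and 20.3 CPM in D3 organoids, and 19.9 and 20.4 CPM in D7 organoids. The order was 2D culture, *in vivo* TECs and then both organoid groups, which overlapped. *Bnip3* rose in 2D culture (log2 fold change 0.93, standard error 0.21, adjusted p = 0.00199), a call lost without 2D replicate 2 (adjusted p = 0.0554), and fell at D3 (log2 fold change -1.57, standard error 0.23, adjusted p = 4.87e-05) and D7 (log2 fold change -1.39, standard error 0.23, adjusted p = 0.000145). Of its transcript words 65.9% recur elsewhere in the genome, so its level is uncertain. *Higd1a* was at 15.7 and 18.6 CPM in *in vivo* TECs, 62.9 and 54.4 CPM in 2D-cultured TECs, 27.2 and 17.9 CPM in D3 organoids, and 15.8 and 16.8 CPM in D7 organoids. It was high in 2D culture, and both organoid groups overlapped *in vivo* TECs. *Higd1a* rose in 2D culture (log2 fold change 1.77, standard error 0.24, adjusted p = 1.46e-05), and against *in vivo* TECs its difference did not pass the threshold at D3 (log2 fold change 0.39, standard error 0.25, adjusted p = 0.273) or D7 (log2 fold change -0.08, standard error 0.25, adjusted p = 0.841).

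Collagen prolyl 4-hydroxylase needs an alpha subunit, and the genes for 2 of these subunits differed in their pattern. *P4ha2* was at 5.05 and 10.4 CPM in *in vivo* TECs, 82.6 and 94.3 CPM in 2D-cultured TECs, 2.37 and 3.08 CPM in D3 organoids, and 2.6 and 3.56 CPM in D7 organoids. Both values in 2D culture were far above the other 6. *P4ha2* rose in 2D culture (log2 fold change 3.49, standard error 0.30, adjusted p = 4.82e-08) and was lower than 2D culture at D3 (log2 fold change -5.00, standard error 0.34, adjusted p = 4.12e-09) and D7 (log2 fold change -4.87, standard error 0.34, adjusted p = 4.05e-09). Against *in vivo* TECs it fell at D3 (log2 fold change -1.51, standard error 0.37, adjusted p = 0.00492) and D7 (log2 fold change -1.38, standard error 0.36, adjusted p = 0.0073), and these calls were lost without *in vivo* replicate 2 (adjusted p of 0.129 and 0.158), without D3 replicate 1 (adjusted p = 0.0543) and without D7 replicate 1 (adjusted p = 0.0858). Both were also lost with limma-voom (adjusted p of 0.0529 and 0.0504).

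*P4ha1* was at 52.7 and 47.95 CPM in *in vivo* TECs, 52.4 and 61.3 CPM in 2D-cultured TECs, 15.7 and 11.9 CPM in D3 organoids, and 18.9 and 12.1 CPM in D7 organoids. *In vivo* and 2D-cultured TECs overlapped, and the 4 organoid libraries were lower. Against *in vivo* TECs, *P4ha1* fell at D3 (log2 fold change -1.87, standard error 0.25, adjusted p = 1.6e-05) and D7 (log2 fold change -1.68, standard error 0.24, adjusted p = 4.26e-05), while 2D culture gave a difference that did not pass the threshold (log2 fold change 0.17, standard error 0.23, adjusted p = 0.571). The log2 ratio of *P4ha2* to *P4ha1* was 0.66 and 0.62 in 2D culture and between -3.39 and -1.76 in the other libraries.

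Neither secreted factor passed the threshold in 2D-cultured against *in vivo* TECs. *Vegfa*, the main growth factor for vessels, was at 82.5 and 89.4 CPM in *in vivo* TECs, 96.02 and 142 CPM in 2D-cultured TECs, 52.05 and 54.2 CPM in D3 organoids, and 69.3 and 65.8 CPM in D7 organoids. The highest libraries were those of 2D culture and the lowest those of D3 organoids. The difference between 2D-cultured and *in vivo* TECs came close to the threshold (log2 fold change 0.47, standard error 0.19, adjusted p = 0.0539) and passed it without 2D replicate 1 (adjusted p = 0.0108) and with limma-voom (adjusted p = 0.0473). *Vegfa* was lower than 2D culture at D3 (log2 fold change -1.16, standard error 0.19, adjusted p = 0.000118) and D7 (log2 fold change -0.82, standard error 0.19, adjusted p = 0.00208), the D7 call being lost without 2D replicate 2 (adjusted p = 0.06). It was lower at D3 than *in vivo* (log2 fold change -0.69, standard error 0.19, adjusted p = 0.0112), a call lost without *in vivo* replicate 2 or either D3 library (adjusted p between 0.0596 and 0.0702). *Adm*, which encodes the vasodilator peptide adrenomedullin, was at 28.9 and 20.6 CPM in *in vivo* TECs, 23.5 and 16.9 CPM in 2D-cultured TECs, 1.69 and 3.08 CPM in D3 organoids, and 1.74 and 4.35 CPM in D7 organoids. *In vivo* and 2D-cultured TECs overlapped, and the organoid libraries lay far below both. *Adm* fell against *in vivo* TECs at D3 (log2 fold change -3.34, standard error 0.43, adjusted p = 1.23e-05) and D7 (log2 fold change -3.09, standard error 0.42, adjusted p = 2.37e-05), and the difference between 2D-cultured and *in vivo* TECs did not pass the threshold (log2 fold change -0.29, standard error 0.35, adjusted p = 0.543).

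*Ndrg1*, a gene of differentiation and stress that hypoxia strongly induces, was at 25.2 and 15.9 CPM in *in vivo* TECs, 155 and 245 CPM in 2D-cultured TECs, 6.76 and 5.17 CPM in D3 organoids, and 2.73 and 6.13 CPM in D7 organoids. Highest were the 2D-cultured libraries and lowest the organoid libraries. *Ndrg1* rose in 2D culture (log2 fold change 3.29, standard error 0.29, adjusted p = 7.54e-08) and fell against *in vivo* TECs at D3 (log2 fold change -1.78, standard error 0.34, adjusted p = 0.000636) and D7 (log2 fold change -2.29, standard error 0.36, adjusted p = 9.23e-05). Against 2D culture the log2 fold changes were -5.07 at D3 and -5.58 at D7 (adjusted p = 2.82e-09 and 1.19e-09). The gene lies at chr15:66801166-66841835, and its window printed above holds 5 motif starts. *Ddit4*, which encodes an inhibitor of mTORC1 signalling that hypoxia and other stresses induce, was at 328 and 417 CPM in *in vivo* TECs, 622 and 590.1 CPM in 2D-cultured TECs, 202 and 199.6 CPM in D3 organoids, and 170.1 and 140.2 CPM in D7 organoids. No 2 groups overlapped, and the order was 2D culture, *in vivo* TECs, D3 and D7. *Ddit4* rose in 2D culture (log2 fold change 0.70, standard error 0.16, adjusted p = 0.00165) and fell at D3 (log2 fold change -0.89, standard error 0.16, adjusted p = 0.000372) and D7 (log2 fold change -1.26, standard error 0.16, adjusted p = 1.07e-05).

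**Figure D4:**
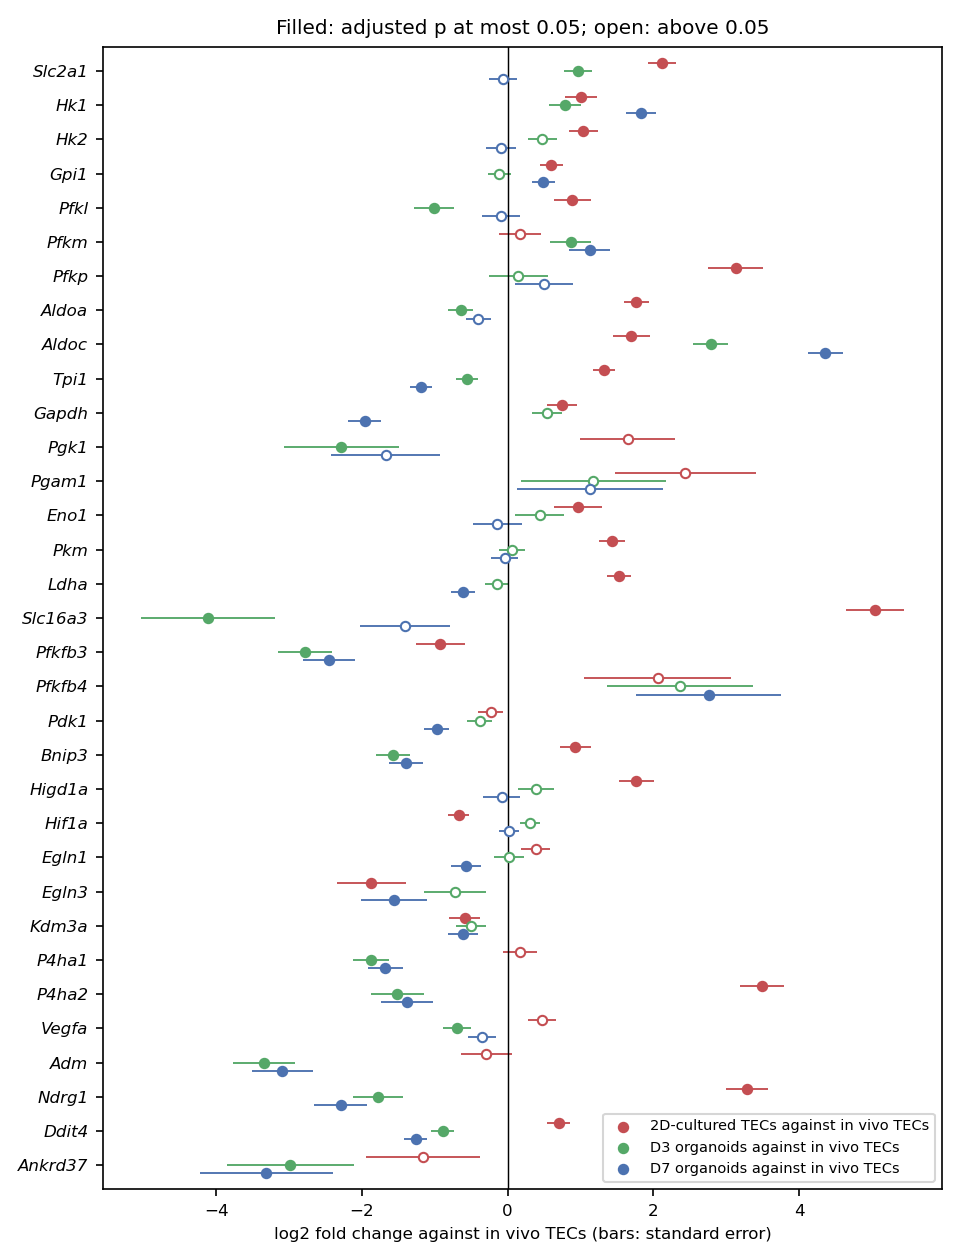
Log2 fold change against *in vivo* TECs (x axis) with its standard error (bars) for the 33 members tested, in 2D-cultured TECs (red), D3 organoids (green) and D7 organoids (blue). Filled points passed an adjusted p of at most 0.05. *Slc16a3*, *P4ha2*, *Ndrg1* and *Pfkp* lie farthest to the right for 2D culture, *Aldoc* for D7 organoids, and *Adm*, *Ankrd37* and *Pfkfb3* are among those farthest to the left for both organoid groups.

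Other genes of these pathways were counted from lists that the members do not belong to. These lists were chosen with earlier results of these data known, so their shares are not independent of the data. Of 24 further HIF targets tested (of 27), 11 were higher and 4 lower in 2D-cultured than in *in vivo* TECs, 3 and 9 at D3, and 5 and 8 at D7. That is 62.5%, 50% and 54.2% called, where 19.9% of all genes were higher and 21.7% lower in 2D culture, 14.1% and 14.0% at D3, and 18.0% and 16.8% at D7. Their median log2 fold changes were 0.73, -0.46 and -0.27, against -0.06, -0.01 and 0.01 over all genes. *Lox*, lysyl oxidase, was at 0.348 and 5.64 CPM in *in vivo* TECs, 192 and 227 CPM in 2D-cultured TECs, 6.76 and 8.53 CPM in D3 organoids, and 6.33 and 5.73 CPM in D7 organoids and rose in 2D culture (log2 fold change 6.03, standard error 0.44, adjusted p = 6.68e-09). Its 2 *in vivo* libraries differ widely. Without *in vivo* replicate 2 the log2 fold change in 2D culture was 9.16. At D3 and D7 *Lox* did not pass (adjusted p = 0.0672 and 0.179), but it did without that library (adjusted p = 3.71e-05 and 0.000116). *Loxl2*, a related oxidase, was at 10.8 and 19.2 CPM in *in vivo* TECs, 42.5 and 52.5 CPM in 2D-cultured TECs, 2.54 and 1.4 CPM in D3 organoids, and 0.248 and 0.791 CPM in D7 organoids and fell at D7 (log2 fold change -4.97, standard error 0.52, adjusted p = 1.29e-06). 2D culture gave the highest values for both oxidases. *Pgf*, placental growth factor, was at 1.22 and 3.24 CPM in *in vivo* TECs, 3.46 and 1.86 CPM in 2D-cultured TECs, 22.1 and 24.1 CPM in D3 organoids, and 49.5 and 65.05 CPM in D7 organoids. The organoid libraries were highest, and *Pgf* rose at D7 (log2 fold change 4.62, standard error 0.37, adjusted p = 4.1e-08). *Stc2*, the secreted glycoprotein stanniocalcin 2, was at 17.4 and 18.6 CPM in *in vivo* TECs, 6.37 and 11.1 CPM in 2D-cultured TECs, 1.69 and 0.979 CPM in D3 organoids, and 0.744 and 2.77 CPM in D7 organoids and fell at D3 (log2 fold change -3.76, standard error 0.56, adjusted p = 5.79e-05).

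Of 14 genes of the HIF machinery (subunits, hydroxylases, the VHL complex and cofactors), 2 were higher and 5 lower in 2D culture than *in vivo*, 2 and 3 at D3, and 2 and 3 at D7. The shares called, 50%, 35.7% and 35.7%, lie near the 41.6%, 28.2% and 34.8% of all genes. *Epas1*, which encodes HIF-2 alpha, was at 1.57 and 2.12 CPM in *in vivo* TECs, 0.182 and 0.928 CPM in 2D-cultured TECs, 10.7 and 8.25 CPM in D3 organoids, and 125 and 115 CPM in D7 organoids. It was near the floor in *in vivo* and 2D-cultured TECs and rose at D7 (log2 fold change 5.99, standard error 0.32, adjusted p = 3.4e-10). *Cited2*, a target of HIF that competes with it for its coactivator, was at 30.5 and 23.98 CPM in *in vivo* TECs, 315 and 319 CPM in 2D-cultured TECs, 49.5 and 40.8 CPM in D3 organoids, and 35.5 and 32.4 CPM in D7 organoids and rose in 2D culture (log2 fold change 3.55, standard error 0.19, adjusted p = 1.5e-10). *Arnt*, the constant partner of the alpha subunits, was at 34.8 and 27.2 CPM in *in vivo* TECs, 19.8 and 18.01 CPM in 2D-cultured TECs, 19.9 and 21.4 CPM in D3 organoids, and 17.2 and 12.5 CPM in D7 organoids. It was lower at D7 than *in vivo* (log2 fold change -1.04, standard error 0.25, adjusted p = 0.00396), which was lost without D7 replicate 2 (adjusted p = 0.0684). *Arnt2*, its homologue, was at 14.8 and 13.8 CPM in *in vivo* TECs, 3.09 and 3.16 CPM in 2D-cultured TECs, 21.5 and 17.1 CPM in D3 organoids, and 10.3 and 9.49 CPM in D7 organoids and fell in 2D culture (log2 fold change -2.19, standard error 0.35, adjusted p = 7.02e-05).

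Among 12 other glucose and lactate carriers and isozymes tested (of 20), 1 was higher and 5 lower in 2D culture than *in vivo*, 2 and 4 at D3, and 2 and 3 at D7. This is 50%, 50% and 41.7% called, against 41.6%, 28.2% and 34.8% of all genes. *Slc2a4*, which encodes the insulin-responsive carrier GLUT4, was at 18.6 and 15.9 CPM in *in vivo* TECs, 1.46 and 1.11 CPM in 2D-cultured TECs, 33.8 and 26.98 CPM in D3 organoids, and 54.2 and 50.6 CPM in D7 organoids. It fell in 2D culture (log2 fold change -3.72, standard error 0.34, adjusted p = 1.18e-07) and rose at D7 (log2 fold change 1.60, standard error 0.23, adjusted p = 3.78e-05), whereas *Slc2a1* rose in 2D culture. *Pgam2*, the muscle mutase, was at 21.8 and 27.4 CPM in *in vivo* TECs, 1.64 and 0.743 CPM in 2D-cultured TECs, 2.7 and 2.1 CPM in D3 organoids, and 1.36 and 0.593 CPM in D7 organoids and fell at D7 (log2 fold change -4.54, standard error 0.51, adjusted p = 2.94e-06). *Tigar*, a phosphatase that restrains glycolysis, was at 4.35 and 3.24 CPM in *in vivo* TECs, 12.7 and 13.9 CPM in 2D-cultured TECs, 5.75 and 0.28 CPM in D3 organoids, and 3.47 and 2.57 CPM in D7 organoids. It rose in 2D culture (log2 fold change 1.81, standard error 0.70, adjusted p = 0.0462), and the call was lost without any of the 4 libraries (adjusted p between 0.0792 and 0.155) and with library size alone (adjusted p = 0.076).

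Pyruvate enters the mitochondrion through a carrier and is oxidized by pyruvate dehydrogenase. Of 12 genes of this step tested (of 13), 2 were higher and 3 lower in 2D culture than *in vivo*, and 1 and 1 at D7, or 41.7% and 16.7% called beside 41.6% and 34.8% of all genes. At D3 edgeR's test called 0 in either direction, where 28.2% of all genes were called, with 2 higher at an unadjusted p of at most 0.05 and 1 higher with limma-voom or DESeq2. *Pcx*, pyruvate carboxylase, was at 13.8 and 15.9 CPM in *in vivo* TECs, 0.364 and 1.49 CPM in 2D-cultured TECs, 11.8 and 9.09 CPM in D3 organoids, and 20.6 and 25.5 CPM in D7 organoids and fell in 2D culture (log2 fold change -3.99, standard error 0.47, adjusted p = 2.85e-06). *Pdk2*, a kinase related to *Pdk1*, was at 4.7 and 4.23 CPM in *in vivo* TECs, 4 and 3.9 CPM in 2D-cultured TECs, 6.93 and 4.19 CPM in D3 organoids, and 21.7 and 24.9 CPM in D7 organoids and rose at D7 (log2 fold change 2.38, standard error 0.37, adjusted p = 8.82e-05). *Dlat*, a subunit of pyruvate dehydrogenase, was higher in 2D culture (log2 fold change 0.82, standard error 0.20, adjusted p = 0.00328), and *Dld*, another, was lower at D7 (log2 fold change -1.09, standard error 0.20, adjusted p = 0.000475).

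Side routes from glucose were counted too. Of 9 genes of the pentose phosphate pathway, which makes NADPH and ribose, 3 were higher and 0 lower in 2D culture than *in vivo* by edgeR's test, 4 and 0 at D3, and 3 and 1 at D7. The shares called were 33.3%, 44.4% and 44.4%, beside 41.6%, 28.2% and 34.8% of all genes. With limma-voom 0 were lower in 2D culture and at D3, as with DESeq2, and at an unadjusted p of at most 0.05 0 were lower in 2D culture and 1 at D3. *Pgd*, phosphogluconate dehydrogenase, was at 63.7 and 41.8 CPM in *in vivo* TECs, 120.2 and 117 CPM in 2D-cultured TECs, 91.3 and 67.1 CPM in D3 organoids, and 76.4 and 74.7 CPM in D7 organoids and rose in 2D culture (log2 fold change 1.18, standard error 0.21, adjusted p = 0.000202). *Tkt*, transketolase, was at 33.6 and 48.8 CPM in *in vivo* TECs, 90.9 and 118 CPM in 2D-cultured TECs, 75.2 and 70.04 CPM in D3 organoids, and 103 and 138 CPM in D7 organoids and rose at D7 (log2 fold change 1.54, standard error 0.21, adjusted p = 2.65e-05), where *Rpe*, the ribulose phosphate epimerase, fell (log2 fold change -1.07, standard error 0.23, adjusted p = 0.00164). Only 2 of 7 gluconeogenic genes could be tested, of which *Pck2*, the mitochondrial PEP carboxykinase, was at 12.5 and 8.6 CPM in *in vivo* TECs, 48.7 and 45.3 CPM in 2D-cultured TECs, 44.1 and 55.5 CPM in D3 organoids, and 49.4 and 48.05 CPM in D7 organoids. All 6 cultured libraries were above *in vivo* TECs, and *Pck2* rose in 2D culture (log2 fold change 2.16, standard error 0.24, adjusted p = 9.77e-07), at D3 (log2 fold change 2.25, standard error 0.23, adjusted p = 1.07e-06) and at D7 (log2 fold change 2.21, standard error 0.23, adjusted p = 1.38e-06).

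Of 9 genes of glycogen metabolism tested (of 11), 1 was higher and 2 lower in 2D culture, 1 and 2 at D3, and 2 and 2 at D7. With 33.3%, 33.3% and 44.4% called, the list lies near the 41.6%, 28.2% and 34.8% of all genes. *Pygl*, the liver type of glycogen phosphorylase, was at 74.5 and 71.8 CPM in *in vivo* TECs, 14.00 and 17.4 CPM in 2D-cultured TECs, 31.6 and 37.8 CPM in D3 organoids, and 38.7 and 42.5 CPM in D7 organoids and fell in 2D culture (log2 fold change -2.22, standard error 0.21, adjusted p = 2.05e-07). *Pygb*, the brain type, was at 28.02 and 38.5 CPM in *in vivo* TECs, 25.1 and 28.2 CPM in 2D-cultured TECs, 56.6 and 65.4 CPM in D3 organoids, and 77.9 and 101 CPM in D7 organoids and rose at D7 (log2 fold change 1.42, standard error 0.21, adjusted p = 5.26e-05). *Pgm1*, phosphoglucomutase, was at 75.9 and 63.6 CPM in *in vivo* TECs, 82.01 and 91.3 CPM in 2D-cultured TECs, 40.4 and 29.2 CPM in D3 organoids, and 24.8 and 27.7 CPM in D7 organoids and fell at D7 (log2 fold change -1.41, standard error 0.21, adjusted p = 4.58e-05). *Pgm2*, a related mutase, was higher in 2D culture (log2 fold change 1.04, standard error 0.33, adjusted p = 0.0176), a call that was lost without *in vivo* replicate 2 (adjusted p = 0.0559) or 2D replicate 2 (adjusted p = 0.218).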

How the data were processed

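RNA of the 8 samples was read by QuantSeq, which covers transcript 3′ ends. The authors used STAR for alignment (GRCm39) and deposited, for each library, raw counts on Ensembl genes. The annotation release, the strand used in counting and the handling of reads with several matches are not given in the sources used here. Per the labels, the authors worked in R 4.1.2 with edgeR and limma. Of the 56923 genes, 56236 matched GENCODE M39, which gave symbols, positions and promoter windows, with bases read from GRCm39.

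A gene was kept if 3 or more libraries reached 1 CPM (14504 genes), TMM factors applied, and 6 comparisons fitted in a single model with edgeR 4.0.16's quasi-likelihood test in R 4.3.3, with Benjamini-Hochberg adjustment over all genes and a threshold of 0.05. Fold changes are on the log2 scale. With 2 libraries a group, an exact permutation test of a single value cannot go below p = 0.333. Totals of 5084715 to 7612532 counts limit precision for genes of a few CPM. Alternatives were limma-voom (limma 3.58.1), DESeq2 1.42.0, DESeq2's size factors, library size alone, no filter, a mean of at least 10 CPM, only the 4 libraries compared, a replicate block and each library left out. The fit was tested on simulated counts for D7 organoids against *in vivo* TECs. It recovered 37% of 100 genes changed 2-fold and 76% of 100 changed 4-fold. A difference that did not pass the threshold can therefore be a missed change. Replicates differed by more than sampling noise in each group (chi-square per degree of freedom 6.82 to 8.70).

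The members and lists were chosen with earlier results of these data known. Values per library are given for the 27 members with an adjusted p of at most 0.05, no overlap between groups and an absolute log2 fold change of at least 1 in any comparison. The other 7 are given by range. *Car9* values, and the values of single groups of *Hif1a*, are given beside that rule. From each pathway list the 2 genes with the largest called difference from *in vivo* TECs in each direction were named where the higher group had at least 10 CPM. Figures were drawn with matplotlib 3.10.9. Summing of near-identical copies was added after seeing the data. Protein sequences were not used here.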

Additional observations from a re-analysis of the deposited data

How the results depend on the processing

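Under no alternative did a member, or a gene named from the pathway lists, that passed the threshold reverse its direction. Other genes were not checked for this. Outside the settings that left out a library, the glycolytic enzymes called numbered 11 to 14 in 2D-cultured against *in vivo* TECs, 5 to 9 at D3, 7 at D7, 9 to 11 and 12 to 13 for D3 and D7 organoids against 2D culture, and 6 to 8 between the organoid days. The other hypoxia genes called numbered 9 to 12, 9 to 12, 9 to 13, 11 to 14, 13 to 16 and 2 to 3 over the 6 comparisons in the same order. With a library left out, the enzymes called ranged from 8 to 12, 4 to 6, 5 to 7, 9, 11 to 12 and 3 to 6, and the others from 9 to 11, 8 to 10, 9 to 11, 12 to 13, 13 to 15 and 1 to 2, again in that order. Fits without a library leave its group with 1 sample, which is assumed to vary like the other groups. Calls over all genes in D7 against D3 organoids fell from 3012 to 1183 without D7 replicate 2 and 1660 without D3 replicate 1, and in D7 organoids against *in vivo* TECs from 5042 to 3016 without D7 replicate 2. The cause was not tested.

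The labels do not tie replicate numbers to animals or days, so whether they pair the samples is unknown, and they were treated as unpaired. Deviations of same-numbered libraries correlated at 0.03 to 0.13 over the 6 pairs of groups. With a replicate block, calls over all genes rose to between 3587 and 6911, no call on a named gene was lost, and 9 were gained, among them *Pgk1* (adjusted p = 0.0457) and *Vegfa* (adjusted p = 0.0319) in 2D-cultured against *in vivo* TECs, *Gapdh* at D3 against *in vivo* (adjusted p = 0.0381), and *Hk2* (adjusted p = 0.0304) and *Egln1* (adjusted p = 0.0241) between the organoid days. Over named genes, 6 calls were lost with library size alone, 7 without the filter, 5 with limma-voom, 4 with DESeq2 and 7 with only the 4 libraries compared. Depth limits *Pgk1*, *Pgam1*, *Pfkfb4*, *Ankrd37*, *Car9* and *Slc16a3*, which had few reads in some groups.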
